A study of Macaca mulatta with 21 samples.

Results

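The cell cycle inhibitor genes examined here are 9 genes that hold back division: the CDK inhibitors CDKN1A, CDKN1B, CDKN2A, CDKN2B, CDKN2C and CDKN2D, and the pocket protein genes RB1, RBL1 and RBL2. They were found by gene symbol among the 52865 probe sets of a rhesus macaque array. Of the 9 genes, 8 had a probe set with their symbol, with 16 probe sets between them, and no probe set carried CDKN2B. Each gene was read from its brightest probe set. All 8 genes passed the filter on low values (log2 of 5 or more on at least 3 of 21 arrays), as did 12 of the 16 probe sets. CDKN2C passed only through the fibroblasts.

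Cyclin-dependent kinases drive a cell from growth into DNA synthesis by phosphorylating the pocket proteins, which otherwise bind E2F factors and keep division genes silent. The INK4 proteins (p16, p15, p18 and p19, encoded by CDKN2A to CDKN2D) block CDK4 and CDK6, while p21 and p27 (encoded by CDKN1A and CDKN1B) act mainly on CDK2. CDKN2A also encodes ARF, which stabilises p53, and p53 in turn switches on CDKN1A. Pluripotent cells are known for a short first gap phase, and the CDKN2A locus and p53 are known barriers to reprogramming.

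RNA was compared between 7 rhesus macaque cell lines, each measured on 3 arrays, lettered A to C, which the labels call biological replicates. ORMES23 (male) is an embryonic stem cell line from a blastocyst made by fertilisation in vitro. Somatic cell nuclear transfer gave the blastocysts behind the cloned embryonic stem cell lines CRES-1, from a male, and CRES-3, from a female. RiPS1 (male), RiPS2 (female) and RiPS3 (female) are skin fibroblasts made pluripotent with retroviral OCT4, SOX2, KLF4 and cMYC. RiPS1 came from a fetus per its source label (the treatment text calls all induced lines adult), RiPS2 from a donor 10 years old and RiPS3 from a donor 8 years old. The fibroblasts were skin cells of a female 8 years old that received no factors. All 7 groups grew on inactivated mouse embryonic fibroblast feeders, the skin fibroblasts in a different medium. Pluripotent RNA came from colonies picked by hand for undifferentiated morphology, fibroblast RNA from trypsinised cells. Every line was derived once, so no test here extends past the lines compared. The labels do not say whether the 3 arrays of a line came from separate cultures, so p-values measure the spread between these arrays.

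The deposited values were log2 intensities from 2.09 to 14.7, with array medians from 4.98 to 5.14 and no pair of arrays correlated above 0.996. A value under log2 5 lies near background. The pluripotency marker list averaged 4.14 in the fibroblasts and between 10.2 and 10.5 in the pluripotent lines, although its member ZFP42 was called higher in ORMES23 alone. The fibroblast marker list averaged 9.75 in the fibroblasts and 6.17 (CRES-3) to 6.96 (CRES-1) in the pluripotent lines. LUM, FAP and PRRX1, defining fibroblast genes, averaged under log2 5 in every pluripotent line, while COL1A1 and COL1A2 stayed above 9 in all of them and DCN did not mark the fibroblasts. In such bulk samples, fewer cells of a type and less RNA per cell cannot be told apart. No scan date or other batch was given in the sources used here.

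The p21 gene CDKN1A, the inhibitor through which p53 halts the cycle, was far higher in the fibroblasts than in any pluripotent line. Its log2 intensities were 11.43, 12.12 and 11.54 in the fibroblasts. In ORMES23 they were 6.65, 7.07 and 7.02. CRES-1 stood above the other pluripotent lines, at 7.90, 7.87 and 8.23, whereas CRES-3 gave 6.57, 7.07 and 6.94. The induced lines overlapped ORMES23 and CRES-3, with RiPS1 at 6.92, 6.92 and 7.57, RiPS2 at 7.65, 6.55 and 7.15, and RiPS3 at 6.90, 7.45 and 6.77. No pluripotent array came within 3 log2 units of a fibroblast array. In the fit over all 11142 genes, the log2 difference from the fibroblasts was -3.70 in CRES-1 and between -4.56 (RiPS1) and -4.84 (CRES-3) in the others, each with an SE of 0.27. These correspond to 13-fold lower in CRES-1 and 23.6-fold to 28.6-fold lower in the other lines. The limma adjusted p-values (Benjamini-Hochberg) ran from 4.06e-11 (CRES-3) to 1.64e-09 (CRES-1). The 6 comparisons share the fibroblast arrays.

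**Figure D1:**
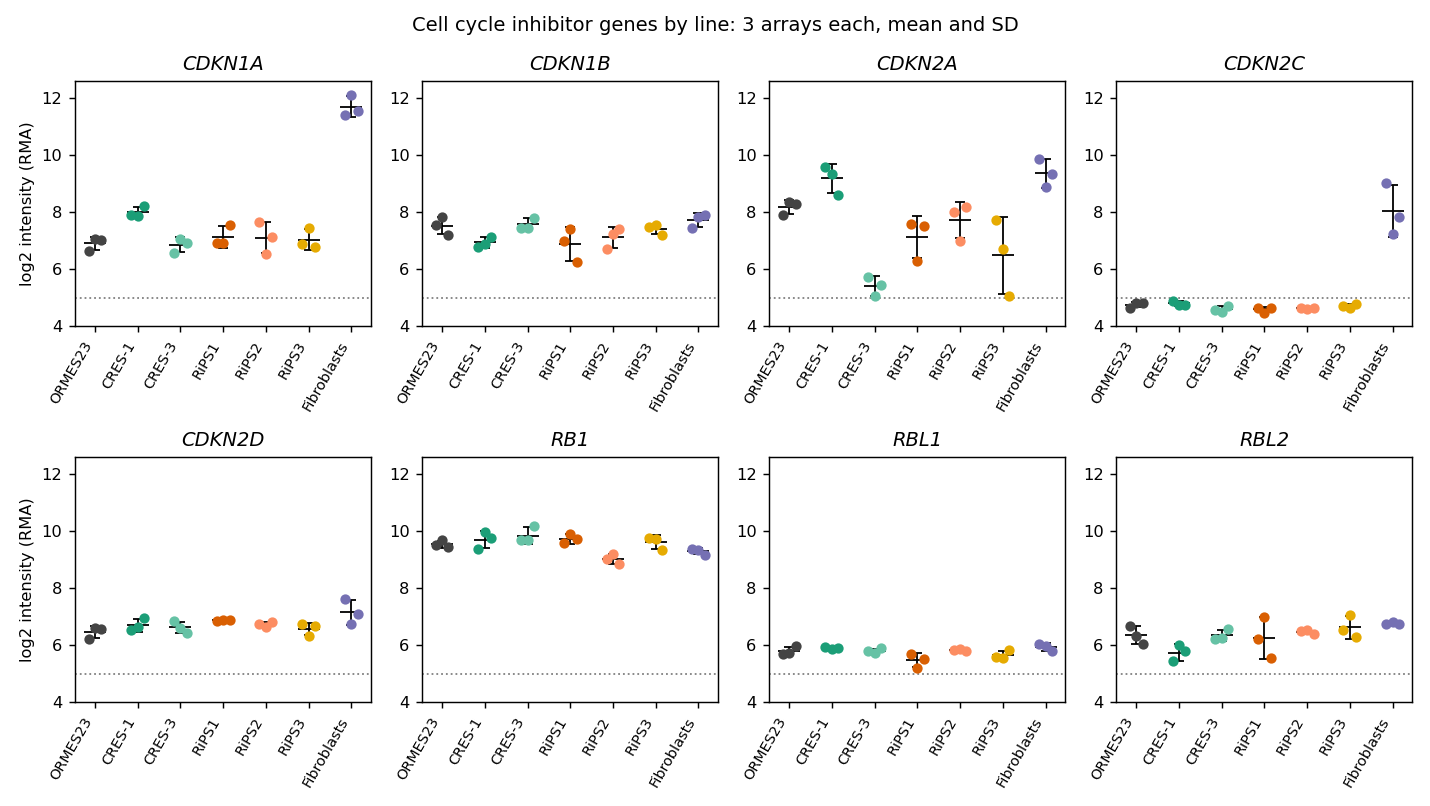
Log2 intensity of the 8 measured genes on the brightest probe set of each (vertical axis) in the 7 lines (horizontal axis); points are arrays, bars the mean and SD of 3 arrays, and the dotted line marks log2 5. CDKN1A and CDKN2C separate the fibroblasts from every pluripotent array, while CDKN2A spans 5.06 to 9.60 among the pluripotent arrays.

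CDKN2C, which encodes the INK4 protein p18, was measurable in the fibroblasts only. The fibroblast arrays read 9.03, 7.24 and 7.84, and the 18 pluripotent arrays read from 4.48 to 4.90, with a median of 4.66. Every pluripotent array was thus under log2 5, and the lines could not be ordered among themselves. Counted from log2 5 to the fibroblast mean of 8.04, CDKN2C was at least 8.20-fold lower in each pluripotent line. The limma adjusted p-values ran from 3.96e-09 to 1.05e-08, for a gene that had to differ to pass the filter. The fibroblast arrays were far apart for this gene, with an SD of 0.91 (n = 3). When a fibroblast array was left out CDKN2C no longer passed the filter. Without the filter it was called in all 6 comparisons whichever fibroblast array was left out, an alternative chosen after seeing the data.

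On its brightest probe set CDKN2A, the gene of p16 and ARF, did not separate the fibroblasts from all pluripotent lines. The fibroblasts read 9.88, 8.87 and 9.35. CRES-1 read 9.60, 9.35 and 8.61, so its arrays overlapped those of the fibroblasts. ORMES23 came next at 7.92, 8.37 and 8.28, followed by RiPS2 at 8.03, 7.0 and 8.18. RiPS1 read 7.58, 6.30 and 7.53. RiPS3 was the most uneven line, at 7.72, 6.70 and 5.06. CRES-3 was lowest, at 5.75, 5.07 and 5.44, close to the log2 5 limit. In the order of the line means, the only neighbours whose arrays did not overlap were CRES-1 and ORMES23.

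Against the fibroblasts, CDKN2A fell in 4 lines. The log2 difference was -3.95 in CRES-3 (limma adjusted p = 2.85e-06), -2.88 in RiPS3 (adjusted p = 0.0001), -2.23 in RiPS1 (adjusted p = 0.00107) and -1.63 in RiPS2 (adjusted p = 0.0109), with an SE of 0.52 for each. As folds these are 15.4, 7.34, 4.69 and 3.10. ORMES23 differed by -1.18 with a limma adjusted p = 0.0549, and CRES-1 by -0.18 with an adjusted p = 0.788 and a 95% interval from -1.27 to 0.91. The RiPS2 call was lost without RiPS2 B (-1.26, adjusted p = 0.0636). It was also lost without fibroblast A when no filter was used (-1.38, adjusted p = 0.0535). The ORMES23 difference was called without fibroblast B (-1.43, adjusted p = 0.0431). It was called at an unchanged -1.18 without RiPS1 B (adjusted p = 0.0456), RiPS2 B (0.0488), RiPS3 A (0.0267) or RiPS3 C (0.0163), arrays that enter only the shared estimate of spread. It was also called in a fit of both lines alone (0.00946), with the letters as a block (0.0378) and with each array centred on its median (-1.27, 0.0371). Without RiPS3 C the RiPS3 difference was -2.16, and without RiPS3 A it was -3.49, called in both cases.

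CDKN2A had 2 further probe sets, both under log2 5 on all 21 arrays. The first, MmugDNA.15045.1.S1_at, read 4.86, 4.52 and 4.70 in the fibroblasts and 4.24, 4.20 and 3.93 in CRES-1. Its remaining arrays lay between 2.98 (CRES-3 A) and 3.65 (ORMES23 C). The second, MmugDNA.1775.1.S1_at, moved only between 3.96 and 4.79, with the fibroblasts at 4.62, 4.79 and 4.58 and CRES-1 at 4.41, 4.18 and 4.35. On both of these sets, near background, every fibroblast array lay above every pluripotent array, unlike on the brightest set. The brightest probe set, MmugDNA.16295.1.S1_s_at, bears the suffix the manufacturer gives to sets whose probes match several transcripts, and which of the p16 and ARF transcripts each set reads, or whether this set also reads CDKN2B, is not given here. Every CDKN2A value above rests on this set. Averaging the 3 probe sets lowered the size of most differences: CRES-3 minus the fibroblasts became -2.01 (limma adjusted p = 6.51e-08) and ORMES23 minus the fibroblasts -0.996 (adjusted p = 0.000232), just under 2-fold and not called.

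The other CDK inhibitors differed from the fibroblasts by less than the 2-fold set for a call. CDKN1B, the gene of p27, lay between 6.25 and 7.83 on the pluripotent arrays with a median of 7.33. The fibroblast arrays read 7.44, 7.84 and 7.91. Its differences ran from -0.16 (CRES-3) to -0.84 (RiPS1), with an SE of 0.25. The limma adjusted p was 0.0116 in CRES-1, 0.00714 in RiPS1 and 0.0441 in RiPS2. Without RiPS1 B, which read 7.42 against 7.0 and 6.25 on the other RiPS1 arrays, the RiPS1 difference was called (-1.10, adjusted p = 0.00108). CDKN2D, the gene of the INK4 protein p19, read 7.61, 6.75 and 7.07 in the fibroblasts and between 6.21 and 6.94 on the pluripotent arrays. Its differences ran from -0.28 (RiPS1) to -0.69 (ORMES23), with an SE of 0.18, and the limma adjusted p was 0.00328 in ORMES23, 0.0118 in RiPS3, 0.0178 in CRES-3 and 0.0419 in CRES-1. Its second probe set gave differences from -0.18 to -0.67, with a lowest limma adjusted p of 0.0712 when all probe sets were tested. On that set the fibroblasts read 7.21, 5.75 and 5.51, and the pluripotent arrays between 5.29 and 6.39. Only fibroblast A lay above the pluripotent arrays there, so the direction rests on that array. The neighbour of CDKN2A in the rhesus genome, CDKN2B (the gene of p15), had no probe set under its own symbol.

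Among the pocket protein genes, which act downstream of the kinases, the probe sets of RB1, and those of RBL2, did not go the same way. RB1, the retinoblastoma gene, read 9.36, 9.33 and 9.16 in the fibroblasts on its brightest probe set. The pluripotent arrays lay between 8.84 and 10.17, and 14 of 18 were above the highest fibroblast array. RiPS2 was the low line, at 9.01, 9.18 and 8.84, and CRES-3 the high one, at 9.68, 9.67 and 10.17. The differences from the fibroblasts ran from -0.28 (RiPS2) to 0.55 (CRES-3, SE 0.17, limma adjusted p = 0.00774), all under 2-fold. On the 2 other probe sets of RB1 the pluripotent lines stood lower than the fibroblasts: in 6 of 6 lines on one, from -0.09 to -0.41, and in 5 of 6 on the other, from -0.49 to 0. As the mean of its probe sets the difference turned negative in ORMES23 (-0.15), RiPS1 (-0.07) and RiPS3 (-0.15).

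RBL1, which encodes the pocket protein p107, stayed near the lower end of the measurable range. Its brightest probe set read 6.03, 5.97 and 5.78 in the fibroblasts and between 5.21 and 5.96 on the pluripotent arrays, while its 2 other probe sets were under log2 5 on every array. RiPS1, at 5.70, 5.21 and 5.51, had the largest difference from the fibroblasts (-0.45, SE 0.12, limma adjusted p = 0.0032). RBL2, the gene of p130, the pocket protein of resting cells, read 6.75, 6.80 and 6.74 in the fibroblasts, the narrowest set of 3 arrays among its lines. CRES-1 read 5.44, 6.0 and 5.78 and was called lower (-1.03, SE 0.27, limma adjusted p = 0.00354). In the other lines the difference ran from -0.15 (RiPS3) to -0.52 (RiPS1), with no call. The CRES-1 call was lost without CRES-1 A (-0.87, adjusted p = 0.0218) and as the mean of both probe sets (-0.49, adjusted p = 0.0269). The second RBL2 probe set stood higher in 6 of 6 pluripotent lines, by 0.05 to 0.60, with a lowest adjusted p of 0.00239 when all probe sets were tested, so no direction is given for RBL2 as a gene.

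**Figure D2:**
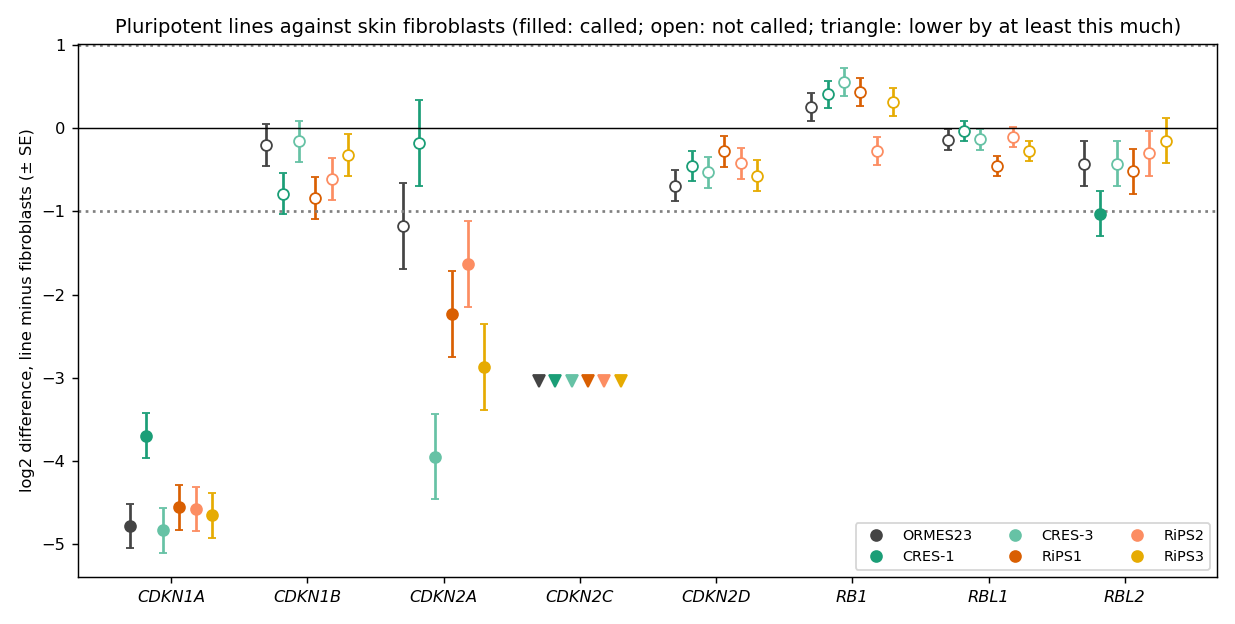
Log2 difference of each pluripotent line from the skin fibroblasts (vertical axis, with the SE of the fit) for the 8 genes (horizontal axis); filled points were called, open points were not, and the dotted lines mark a 2-fold difference. Triangles give CDKN2C as a bound counted from log2 5, at least 8.20-fold lower in each line. CDKN1A lies between -3.70 and -4.84 in every line, and CDKN2A spreads from -0.18 in CRES-1 to -3.95 in CRES-3.

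CDKN2C is left out of the counts against the fibroblasts, since it passed the filter through their level alone. Of the other 7 genes, CDKN1A was called lower in ORMES23 (1 of 7, where 14.1% of all genes tested were called lower). In CRES-1 the called genes were CDKN1A and, on its brightest probe set only, RBL2 (2 of 7, against 14.2% of all genes). The RBL2 call was lost without CRES-1 A, and its second probe set went the other way. In CRES-3, RiPS1, RiPS2 and RiPS3 they were CDKN1A and CDKN2A (2 of 7 each, against 14.2%, 13.5%, 14.6% and 14.2%). No inhibitor gene was called higher, where 18.5% (ORMES23), 16.4% (CRES-1), 19.1% (CRES-3), 19.3% (RiPS1), 17.2% (RiPS2) and 18.3% (RiPS3) of all genes were. The median difference of the 7 genes lay between -0.32 (RiPS3) and -0.52 (RiPS1), and that of all genes tested between 0.02 and 0.05.

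The fibroblast arrays themselves differed in their division genes. The proliferation list, 16 measured genes of replication and mitosis such as MCM2 and CENPF, averaged 9.93 on fibroblast A, 7.76 on B and 8.88 on C, while every pluripotent array lay between 10.4 and 10.9. On their brightest probe sets, CDKN2A, CDKN2C and CDKN2D were each highest on fibroblast A and lowest on B, and CDKN1A was highest on B. The second CDKN2D set was highest on A but lowest on C. Of the dimmer CDKN2A sets, MmugDNA.15045.1.S1_at kept the order, and MmugDNA.1775.1.S1_at was highest on B and lowest on C. The part of these division genes in the inhibitor values was not tested.

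Of 15 CDK and cyclin genes tested, the partners of the inhibitors, 8 rose in each pluripotent line and 2 to 4 fell. Of all genes tested, 16.4% to 19.3% rose and 13.5% to 14.6% fell, the shares that also stand beside the lists that follow. The list median was 1.13 to 1.72 on the log2 scale, and that of all genes 0.02 to 0.05. The list averaged 8.79 on fibroblast A, within the 8.55 to 8.94 of the pluripotent arrays, 7.49 on B and 8.15 on C. Its members CCNA2 and CCNB1 are also in the proliferation list. CCNE1, the G1/S cyclin that activates CDK2, rose by 1.85 (CRES-1) to 2.31 (RiPS1, SE 0.13, limma adjusted p = 4.42e-11). CCND3, a D-type cyclin that activates CDK4 and CDK6, fell in every line, with differences from -3.12 (RiPS1) to -3.95 (RiPS3, SE 0.22, adjusted p = 5.43e-11). CDK1, the mitotic kinase, rose by 2.32 in RiPS3 (SE 0.36), and the CDK-activating phosphatase genes CDC25A (2.08 in ORMES23, SE 0.30) and CDC25C (2.5 in RiPS1, SE 0.31) rose too.

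Genes of the E2F factors and of the DREAM complex, through which the pocket proteins repress, were higher or not called, except that TFDP1, the main dimer partner of E2F, fell in RiPS1 (-1.30, SE 0.22, limma adjusted p = 5.56e-05). Of 13 tested, 5 (CRES-1) to 8 (ORMES23) rose, with list medians from 0.64 to 1.25 against 0.02 to 0.05 for all genes. TFDP2, another partner, rose by 2.27 (CRES-1) to 2.43 (ORMES23, SE 0.11). E2F5, a repressor E2F that binds the pocket proteins, rose by 2.20 (CRES-1) to 2.53 (RiPS3, SE 0.21). LIN9 (1.57 to 2.13, SE 0.30) and MYBL2 (1.28 to 1.92, SE 0.30), subunits of the complexes that switch mitotic genes, rose in all 6 lines. E2F3, an activator, was called in 4 lines (up to 1.35 in ORMES23, SE 0.19).

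Of 15 other inhibitors and regulators tested, 4 to 5 rose and 2 to 4 fell in each line (list medians 0.24 to 0.58). Among all genes tested, 16.4% to 19.3% rose and 13.5% to 14.6% fell. SKP2, which marks p27 for destruction, rose by 2.00 (RiPS2) to 2.40 (ORMES23, SE 0.34). CKS1B, its cofactor, rose by 1.95 in RiPS3 (SE 0.17), and CKS2, its paralog, by 1.13 in CRES-1 (SE 0.17). FOXO1, a transcription factor held in check by insulin signalling, rose by 1.33 (RiPS2) to 2.08 (CRES-1, SE 0.19). CBX7, a Polycomb protein that represses the CDKN2A locus, was called in 3 lines, by 1.56 in CRES-3 (SE 0.16), 1.08 in RiPS3 and 1.01 in RiPS1. Its difference was 0.88 in ORMES23, 0.52 in CRES-1 and 0.37 in RiPS2, none of them called.

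Of 16 other p53 targets tested, 1 to 3 rose and 1 to 4 fell, with list medians from -0.32 to -0.12. Of all genes tested, 16.4% to 19.3% rose and 13.5% to 14.6% fell. PMAIP1, which encodes the death protein NOXA, rose by 4.74 (RiPS2) to 5.39 (CRES-3, SE 0.16, limma adjusted p = 1.57e-14). FAS, a death receptor gene, fell in all 6 lines. It differed by -2.08 in CRES-1 (SE 0.35) and, counted from log2 5, was at least 4.66-fold lower in the other lines, where it averaged under log2 5. PHLDA3, an inhibitor of AKT, was called lower in ORMES23 (-1.49, SE 0.38), CRES-3 (-1.89), RiPS2 (-1.18) and RiPS3 (-1.43). SESN1, a stress-response gene, rose by 1.32 in CRES-1 (SE 0.17), and TP53I3 fell by 1.74 in RiPS2 (SE 0.23). Of the proliferation list, 12 to 14 of 16 rose and none fell. MCM3 rose by 3.37 in RiPS2 (SE 0.35), MCM2 by 2.78 in ORMES23 (SE 0.32), CENPF by 3.74 in RiPS1 (SE 0.45), CDC6 by 1.81 in RiPS2 (SE 0.21) and AURKB by 1.79 in RiPS2 (SE 0.23).

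Among the 6 pluripotent lines, CDKN2A was the inhibitor gene that varied most. The range of its line means was 3.77 on the log2 scale, and the limma F test of equal means gave an adjusted p = 0.00104. CDKN1A was called too, with a range of 1.14 (adjusted p = 0.0389). That makes 2 of 8, where 7.52% of all genes tested were called. RB1 reached an adjusted p = 0.019 with a range of 0.83, under the 2-fold limit. CDKN2A was called whichever array was left out (adjusted p from 0.000223 to 0.00477). The CDKN1A call was lost when any of 12 arrays was left out: ORMES23 B or C, any CRES-1 or CRES-3 array, RiPS1 A or B, RiPS2 C or RiPS3 C. Its adjusted p then lay between 0.0502 (CRES-3 B) and 0.157 (CRES-1 C). It was also lost with the letters as a block (0.0532).

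The spread of CDKN2A was large between lines and within them. The SD of its 6 pluripotent line means was 1.32, at the 99.9th percentile of all genes tested. The SD between arrays of a line, over all 7 lines, was 0.70, at the 98.4th percentile, and most of it came from RiPS3 (SD 1.34, n = 3), RiPS1 (0.72) and RiPS2 (0.64). The median gene had 0.16 between lines and 0.21 within them. For CDKN1A these SDs were 0.42 and 0.35. CDKN1B, CDKN2C, CDKN2D, RBL1 and RBL2 varied about as much between the arrays of a pluripotent line as between the lines.

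**Figure D3:**
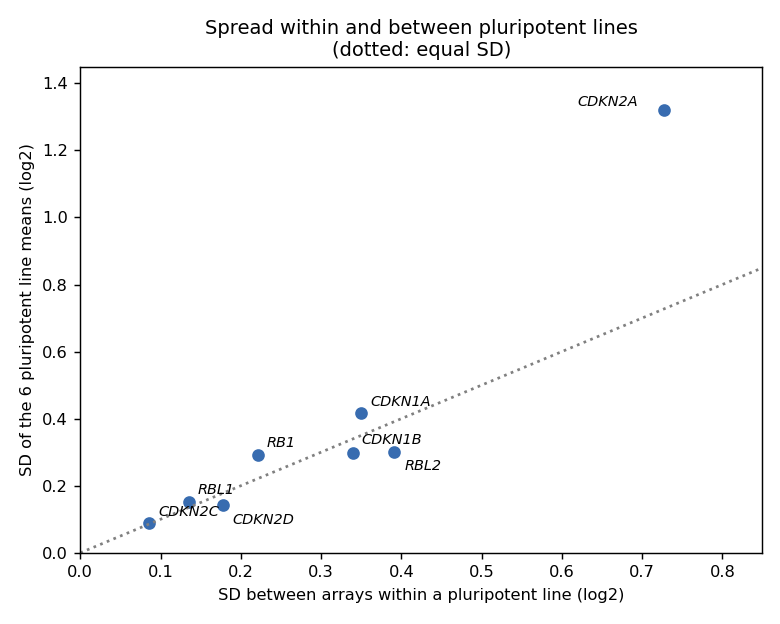
SD of the 6 pluripotent line means (vertical axis) against the SD between the 3 arrays of a pluripotent line (horizontal axis), both in log2 units, for the 8 genes; the dotted line marks equality. CDKN2A lies apart at 1.32 and 0.73, and the other genes lie near the line, under 0.45 on both axes.

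The reprogrammed lines were set against ORMES23, the line from a fertilised embryo, which serves all 5 comparisons. In CRES-3, CDKN2A was lower by 2.77 (SE 0.52, 6.80-fold, limma adjusted p = 0.0081), the only call among the 8 genes, where 0.996% of all genes (111) were called. Leaving out ORMES23 A took that all-gene count to 194, while leaving out ORMES23 B, ORMES23 C, CRES-3 B or CRES-3 A gave between 52 and 63. CDKN2A ranked 67 among the 11142 genes by p. Without CRES-3 B, the lowest CRES-3 array, the difference was -2.59 and the adjusted p was 0.0565. As the mean of 3 probe sets it was -1.02 (adjusted p = 0.00946). RiPS3 differed by -1.70 with no call (adjusted p = 0.112). Without RiPS3 A, its highest array, RiPS3 differed by -2.31 and was called (adjusted p = 0.0122). The remaining CDKN2A differences were 1.00 in CRES-1 (95% interval -0.09 to 2.09), -1.05 in RiPS1 (-2.14 to 0.04) and -0.45 in RiPS2 (-1.54 to 0.64).

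No inhibitor gene was called in CRES-1, RiPS1, RiPS2 or RiPS3 against ORMES23, where 0%, 2.4%, 0.458% and 0.772% of all genes were. For CRES-1 this was a count of 0 over all genes, with 1268 genes at an unadjusted p under 0.05. It rose to 40 without ORMES23 A, to 12 without CRES-1 C and to between 2 and 6 without any of CRES-1 B, fibroblast A or B, RiPS1 C, RiPS2 A or RiPS2 B. For RiPS2 the all-gene count of 51 fell to between 27 and 32 without ORMES23 B, ORMES23 C or RiPS2 A. For RiPS3 the count of 86 was 182 without RiPS3 A, 34 without RiPS3 B, 44 without RiPS3 C and 49 without ORMES23 C. CDKN1A was higher in CRES-1 by 1.09 (SE 0.27, 95% interval 0.52 to 1.65, unadjusted p = 0.00077), and the limma adjusted p was 0.138. All 3 CRES-1 arrays were above all 3 ORMES23 arrays for this gene. In the other lines CDKN1A differed from ORMES23 by -0.05 (CRES-3) to 0.23 (RiPS1). RB1 differed in RiPS2 by -0.53 on its brightest probe set (SE 0.17, adjusted p = 0.173) and by -0.19 and 0.30 on the others, and CDKN2A in CRES-3 was the only inhibitor gene with an adjusted p under 0.1.

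Of the partner and target genes, TP53I3 in RiPS2 was the only one called against ORMES23 (-1.44, SE 0.23, limma adjusted p = 0.00378). The CDK and cyclin, E2F and DREAM, regulator and proliferation lists had no call in any of the 5 comparisons. The medians of those lists ran from -0.29 (proliferation, CRES-1) to 0.04 (CDK and cyclin, RiPS2). The p53 target list had its highest median in CRES-1 (0.31), with no call.

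A cloned and an induced line were compared within each labelled sex. The series' design text speaks of a shared monkey source of skin fibroblasts for cloned and induced lines, while the labels give different sexes and ages and no shared donor, so no donor was matched here. In the male lines, CDKN2A was higher in CRES-1 than in RiPS1 by 2.05 (SE 0.52, 4.14-fold, limma adjusted p = 0.0212). That is 1 of 8, where 2.14% of all genes were called and 0.53% were called higher. Of all genes called, 24.8% were higher in CRES-1, and 43.1% with each array centred on its median, a scaling that moved every difference by 0.12. The CDKN2A call was lost without CRES-1 A (1.84, adjusted p = 0.102), CRES-1 B (1.97, adjusted p = 0.0681) or RiPS1 B (1.63, adjusted p = 0.124). CDKN1A was higher in CRES-1 by 0.86 (SE 0.27, adjusted p = 0.0613), and without RiPS1 C it was called (1.08, adjusted p = 0.0276). RBL1 was higher by 0.43 (SE 0.12, adjusted p = 0.0403), under 2-fold.

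In the female lines no inhibitor gene was called between CRES-3 and RiPS3, where 0.0359% of all genes, 4 in number, were called and 882 had an unadjusted p under 0.05. That count of 4 became 20 when RiPS3 A was left out, 8 for ORMES23 A, 7 for RiPS2 A, 2 for CRES-3 A, and 1 for RiPS3 C, RiPS3 B or CRES-3 B. CDKN2A differed by -1.07 (SE 0.52, 95% interval -2.16 to 0.02, limma adjusted p = 0.656), and the lowest RiPS3 array overlapped CRES-3. The difference between the female and the male comparison was -3.12 for CDKN2A (SE 0.73, adjusted p = 0.0204), where 2.89% of all genes (322) were called, a count that fell to between 185 and 208 without CRES-1 A, CRES-3 A, CRES-3 B, RiPS1 A or RiPS1 B. The CDKN2A call was lost without CRES-1 A (-2.91, adjusted p = 0.0628), CRES-3 B (-2.95, 0.0565) or RiPS1 B (-2.70, 0.0605). For CDKN1A the same difference was -1.04 (SE 0.38, adjusted p = 0.128). TFDP1 (-1.16, SE 0.31, adjusted p = 0.04) and BTG2, an antiproliferative p53 target (-1.33, SE 0.37, adjusted p = 0.0492), were the only genes of the partner, regulator, target and proliferation lists called for it. With 1 cloned and 1 induced line of each sex, sex and line cannot be told apart, nor can donor age, since RiPS1 came from a fetus and RiPS3 from a donor 8 years old.

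**Figure D4:**
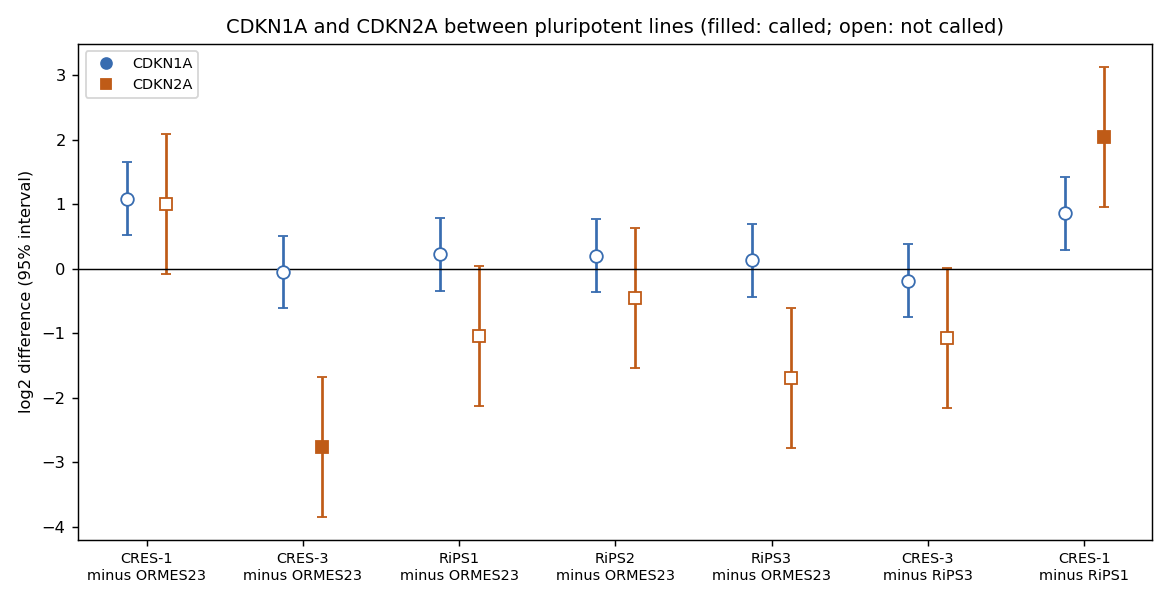
Log2 difference of CDKN1A (circles) and CDKN2A (squares) between pluripotent lines (vertical axis, with the 95% interval of the fit) for 7 comparisons (horizontal axis); filled symbols were called. CDKN2A was called for CRES-3 minus ORMES23 (-2.77) and CRES-1 minus RiPS1 (2.05), and CDKN1A for none.

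Marker lists of other cells had few or no calls between the same lines. The fibroblast list averaged 7.12, 7.09 and 6.67 on CRES-1 A, B and C, where CDKN2A read 9.60, 9.35 and 8.61. It averaged 6.01, 6.23 and 6.28 on the CRES-3 arrays, the lowest of any pluripotent line. Against ORMES23, 1 of 10 genes of this list was called lower in CRES-3, TWIST1, and 0 of 10 were called between CRES-1 and RiPS1. The list of endoderm, mesoderm, trophoblast and neural markers averaged 7.26 in ORMES23 (SD 0.34, n = 3) and 6.05 in CRES-3 (SD 0.50, n = 3), with 1 of 13 genes called lower, GATA3, and 0 of 13 were called between CRES-1 and RiPS1. On the RiPS3 arrays it averaged 7.18, 7.20 and 5.98, where CDKN2A read 7.72, 6.70 and 5.06. The part of these cells in the CDKN2A values was not tested.

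Genes with the most similar profile were found by Pearson correlation, as a description, since arrays of a line share that line. Over the 18 pluripotent arrays CDKN2A was most like VIM (r = 0.923), the mesenchymal intermediate filament gene, PHC2 (0.907), a Polycomb gene, and FAT1 (0.903), an atypical cadherin gene. VIM averaged 13.73 in CRES-1, 13.45 in ORMES23, 13.14 in RiPS2, 12.80 in RiPS1, 12.69 in RiPS3 and 12.17 in CRES-3, the order in which CDKN2A falls. Over all 21 arrays the nearest genes were VIM (0.932), FAT1 (0.911) and TWIST1 (0.891).

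CDKN1A over the pluripotent arrays was most like GASK1B (0.913, under log2 5 on most arrays), ZMAT3 (0.903) and PHLDA3 (0.864), both ZMAT3 and PHLDA3 being members of the p53 target list. ZMAT3 averaged 9.18 in CRES-1 and between 8.21 and 8.64 in the other pluripotent lines. In the fibroblasts, where CDKN1A was highest, ZMAT3 stood at 8.45 (SD 0.07, n = 3). The p53 target list averaged 7.86 in CRES-1 and 7.48 to 7.61 in every other line, fibroblasts included. Over 21 arrays the genes nearest to CDKN1A were NBL1 (0.979), MSC (0.978) and DMPK (0.977), a likeness that the gap to the fibroblasts sets.

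**Figure D5:**
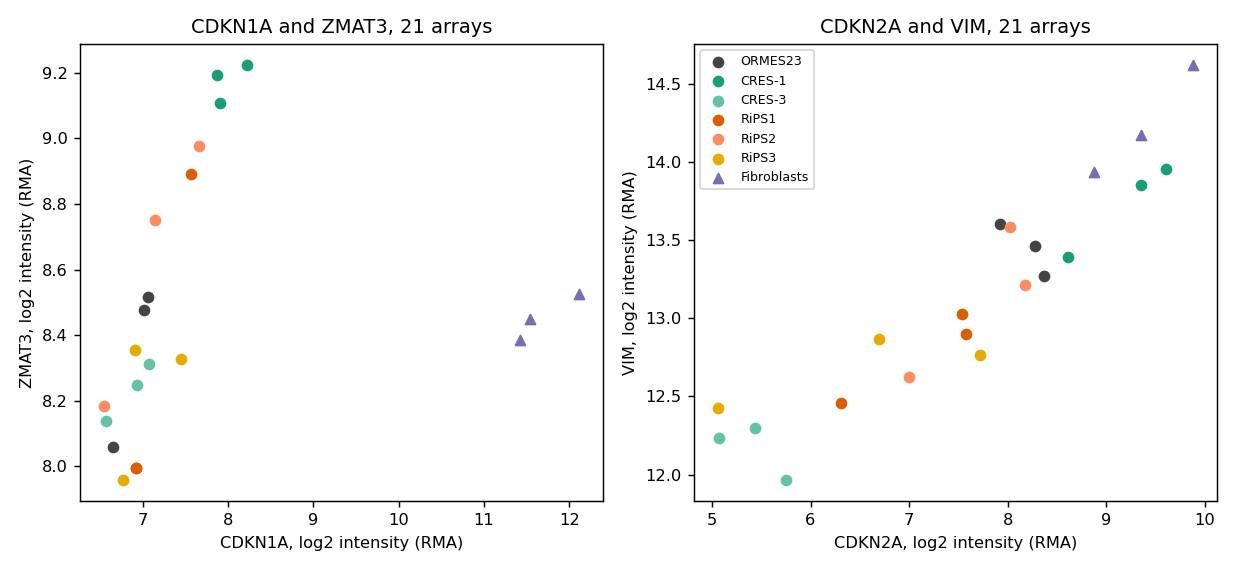
Log2 intensity of ZMAT3 against CDKN1A (left) and of VIM against CDKN2A (right) on 21 arrays; colours mark the lines and triangles the fibroblasts. The fibroblasts lie apart on the left, at CDKN1A of 11.43 to 12.12 with ZMAT3 of 8.39 to 8.52, and continue the pluripotent arrays on the right.

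For the remaining genes the nearest profiles over the pluripotent arrays were JMY (0.881), SSX2IP (0.871) and MDM1 (0.850) for CDKN1B, and MMP14 (0.849), MYO9B (0.841) and TOR3A (0.819) for CDKN2D. They were AGFG1 (0.874), PLEKHF2 (0.845) and TMEM209 (0.842) for RB1, ACTL7B (0.876), OR7D4 (0.841) and PRLH (0.831) for RBL1, and ZNF507 (0.843), PTAR1 (0.837) and CPOX (0.836) for RBL2. For CDKN2C, near background there, they were PSPN (0.834), JAML (0.819) and NIPAL4 (0.811). Over all 21 arrays CDKN2C was most like BGN (0.989), KDELR2 (0.986) and CPT1A (0.986), a likeness that the gap to the fibroblasts sets. Like CDKN2C, KDELR2 and CPT1A were near background in every pluripotent line. Over the same arrays CDKN2D was most like LOC701022 (0.909), STK16 (0.896) and CLIC1 (0.891). CDKN1B was most like SNTB1 (0.816), RABGEF1 (0.798) and ORMDL1 (0.777). RB1 was most like BET1 (0.835), EFR3A (0.821) and BTF3 (0.799), RBL1 like ACTL7B (0.868), PRLH (0.830) and EVX1 (0.803), and RBL2 like PTAR1 (0.837), CDK19 (0.775) and C3H7orf25 (0.752).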

How the data were processed

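The authors deposited log2 intensities per probe set. RMA, which corrects background, normalizes arrays and summarises probes, is named in the submitters' processing notes, with a version not given in the sources used here. The deposited table held 52865 probe sets, of which 24969 carried 1 gene symbol, 361 several and 27535 none. Each of 14132 genes was read from its brightest probe set, and 11142 genes entered the tests, having a log2 of 5 or above on 3 arrays or more. A single limma 3.58.1 model in R 4.3.3 gave a mean per line with 14 residual degrees of freedom. Two-sided p-values were adjusted (Benjamini-Hochberg) within each comparison, across every gene tested. A call needed an adjusted p below 0.05 and a 2-fold difference, and "rose" and "fell" are used of calls. The female less the male cloned-to-induced difference was an interaction term. The script was tested on simulated data.

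The inhibitor genes and the lists were chosen with earlier results of these data known. All inhibitor genes are named; of each list, up to 5 called genes with the smallest p per family of comparisons, and the 3 most correlated genes per inhibitor. LUM, FAP, PRRX1, COL1A1, COL1A2, DCN, ZFP42, TFDP1, BTG2, TWIST1 and GATA3 were named after their values were seen. Alternatives were each array left out, other filters, the mean of probe sets, all probe sets, median centring, both lines alone and the letters as a block. Gene neighbours came from RefSeq's T2T-MMU8v2.0 annotation. The number of arrays limits the precision.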

Additional observations from a re-analysis of the deposited data

Results flagged for a closer look

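The comparison of the cloned with the induced line differed between the labelled sexes for CDKN2A. The female difference (CRES-3 minus RiPS3, -1.07) less the male difference (CRES-1 minus RiPS1, 2.05) was -3.12 (SE 0.73, limma interaction test, adjusted p = 0.0204). The female difference itself was not called (limma adjusted p = 0.656). Of all genes tested, 2.89% were called for this interaction. The CDKN2A call was lost without CRES-1 A, CRES-3 B or RiPS1 B. CRES-3 had the lowest mean of the 6 pluripotent lines and CRES-1 the highest. A single line stands for each route and sex, and the induced lines also differ in donor age (a fetus and a donor 8 years old), so sex, line and age cannot be told apart.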

How the results depend on the processing

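Of 3195 values of 112 inhibitor differences under an alternative, 3124 kept their direction and side of the threshold, 12 gained a call, 11 lost one and none reversed a called difference. The other 48 were uncalled differences that changed sign, the largest of them 0.44 in size. The counts of inhibitor genes in this section are of all 8 tested, with CDKN2C included, although CDKN2C had to differ to pass the filter. With every array, 2 were called against the fibroblasts in ORMES23 and 3 in each other line. Leaving out one array at a time, that number ranged from 1 to 3 in ORMES23 and from 2 to 4 in RiPS1. In CRES-1, CRES-3, RiPS2 and RiPS3 it ranged from 2 to 3. Against ORMES23 it ranged from 0 to 1 in CRES-3 and RiPS3 and stayed at 0 in CRES-1, RiPS1 and RiPS2. It ranged from 0 to 2 for CRES-1 against RiPS1, from 0 to 1 for the female less the male comparison and from 1 to 2 among the pluripotent lines. In each fibroblast comparison 1 loss was CDKN2C, which fewer fibroblast arrays put under the filter. With the filter, CDKN2C gave no value when a fibroblast array was left out, so its losses are not among the 11 above. The filter at log2 6 and the mean of probe sets gave no value for RBL1, which then missed the filter.

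Same-letter arrays of different lines deviated together about as much as arrays of different letters (median r 0.0099 against 0.001). The r ran from -0.41 to 0.44 over 63 same-letter pairs and from -0.53 to 0.45 over 126 different-letter pairs. No common pairing by letter was seen, although medians cannot settle whether some lines were paired. With the replicate block, the count among the pluripotent lines was 1 in place of 2. The count in ORMES23 against the fibroblasts, CDKN2C included, was 3 in place of 2. No other count of inhibitor genes changed. Median centring shifted every gene by up to 0.16, in the female less the male comparison, where the share of called genes that were higher went from 69.6% to 52%.

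Over all genes, testing every probe set raised the counts against the fibroblasts from between 3408 and 3709 to between 8526 and 9694. That setting tested 30682 probe sets in place of 11142 genes. It gave 22 for 0 in CRES-1, 334 for 111 in CRES-3, 653 for 267 in RiPS1, 189 for 51 in RiPS2 and 256 for 86 in RiPS3 against ORMES23. It gave 39 for 4 (CRES-3 minus RiPS3), 630 for 238 (CRES-1 minus RiPS1), 844 for 322 (female less male comparison) and 2236 for 838 (among pluripotent lines). A fit of both lines alone gave 1 for 4 (CRES-3 minus RiPS3), 10 for 51 (RiPS2) and 25 for 86 (RiPS3), the last pair against ORMES23. For CRES-1 against ORMES23, 8 genes were called with the replicate block and 1 each with median centring, the mean of probe sets and both lines alone. The cause was not tested. Few arrays and a log2 of 5 limit what could be seen of CDKN2C in pluripotent cells.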

Other observations

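MTAP, the next protein-coding gene to CDKN2A on the side away from CDKN2B in the rhesus annotation, was looked at after the CDKN2A values were seen. It differed from ORMES23 by -0.63 in CRES-3 (SE 0.19, limma adjusted p = 0.0886), with no call. MTAP averaged 8.86 in ORMES23, 8.73 in RiPS3, 8.68 in RiPS2, 8.52 in CRES-1 and 8.44 in RiPS1. It was as low in the fibroblasts (8.24), where CDKN2A was highest, as in CRES-3 (8.23), so MTAP did not keep the order of CDKN2A.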
